A study of Mus musculus with 6 samples.

Results

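Solute carriers are the membrane proteins that move amino acids, sugars, ions, metals, nucleosides, lipids and metabolites across the plasma membrane and the membranes of organelles. The genes described here were those whose mouse symbol carries the family name (Slc, a family number, letters and a member number). Slc1a2 and Slc1a3, the main astrocyte glutamate transporters, were left out by name, and a mean of at least 20 expected counts over the 6 libraries was required. Of 29267 genes in the tables, 373 had such a symbol. Of these, 2 were excluded by name, 170 were below the minimum (47 of them with 0 counts in all libraries) and 201 were kept, from 43 families. The symbols of 197 name a carrier, and those of 4 name an adaptor or a neighbouring gene (Slc9a3r1, Slc9a3r2, Slc4a1ap and Slc7a6os). The members just inside the minimum had mean counts of 20 (Slc7a4), 20.7 (Slc1a6) and 21.1 (Slc16a9), and the genes just outside it had 19.9 (Slc26a1), 19.2 (Slc45a1) and 19.2 (Slc7a3). All 201 members also passed the filter of the test, a mean of at least 10 counts.

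The cells were mouse neural stem cells from the OG2 strain, which carries a green fluorescent reporter driven by the Oct4 gene, and all were at passage 8. They were sequenced as stem cells (NSC) or after differentiation, under a label reading D2 (taken here as the name of the state only). In each state there was a control (Con), a culture with naloxone, which blocks opioid receptors (Nal), and a culture with DAMGO, a peptide that activates the mu opioid receptor (Dam). Each of these 6 groups is 1 library, so the SD given for a state is over its 3 ligand conditions, and nothing in the labels says whether the cultures were separate. The p-values therefore measure the spread between these 6 libraries, which may be technical.

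Carriers fall into 3 broad mechanisms: facilitated diffusion, cotransport with sodium or protons, and exchange of one substrate for another. In neural tissue, glia use them to clear transmitters, to recycle glutamine and to buffer potassium, chloride and protons. Dividing cells use plasma membrane amino acid carriers to bring in the substrates of protein and nucleotide synthesis.

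The libraries held between 8417074 and 13561237 expected counts. The members took up 1.25% of the counts in each NSC library and 1.62 to 1.64% in the D2 libraries. On the TPM scale, which is per length and has 1 fixed sum per library, the members added up to 10422 to 10471 in NSC and 13135 to 13173 in D2. The NSC libraries expressed the stem cell markers at a summed 5000 to 5080 CPM (counts scaled by library size), with Sox2, Nes and Vim all abundant, and the D2 libraries at 2430 to 2530 CPM. Of these 5 markers Nes and Vim fell, while Sox2, Pax6 and Prom1 rose. Markers of dividing cells summed to 3170 to 3180 CPM in NSC and 175 to 212 CPM in D2, and 4 of 4 fell. Astrocyte markers summed to 915 to 960 and 4850 to 5050 CPM (6 of 6 tested rose). Most of that sum came from Slc1a3 (743 CPM in the NSC control and 3320 CPM in the D2 control) and Slc1a2 (105 and 609 CPM), the carriers excluded by name. Gfap reached 6.85 to 11.4 CPM in D2. Markers of the oligodendrocyte lineage summed to 3190 to 3310 and 5860 to 6570 CPM (7 of 8 rose, 1 fell). Neuronal markers summed to 1130 to 1190 and 1180 to 1330 CPM, with 2 rises and 2 falls among 6 tested and the glutamate vesicle carrier Slc17a6 at 0 in all libraries. Most of the neuronal sum was Map2 (1070 CPM in the NSC control and 1030 CPM in the D2 control). Between the same libraries Tubb3 went from 12.9 to 107 CPM and Rbfox3 from 1.41 to 7.14 CPM. Snap25 went from 4.03 to 1.47 CPM and Syt1 from 25.2 to 21.3 CPM. Microglial markers did not exceed 1.98 CPM (Cx3cr1 and Slc2a5 at 0) and endothelial markers did not exceed 4.89 CPM (Cldn5 at 0). Fibroblast and pericyte markers summed to 0.549 to 16.3 CPM, and ependymal markers to 5.93 to 7.21 CPM in NSC and 25.2 to 28.3 CPM in D2. The part of these shifts in the carrier results was not tested, and in bulk RNA fewer cells of a type and less RNA per cell cannot be told apart.

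Between the states, 111 of the 201 members rose in D2, 63 fell and 27 did not pass (edgeR quasi-likelihood test, Benjamini-Hochberg adjusted p under 0.05). Over all 13216 genes tested, 40.0% rose and 39.8% fell, 79.8% in all, so the share of members that fell (31.3%) was below that background and the share that rose (55.2%) was above it. The median log2 fold change of the members was 0.29, against 0.00145 over all genes tested, with a range from -3.35 to 5.63. The upper end was Slc24a4, which passed the count minimum only through D2. A change of at least 2-fold was seen in 46 rising and 34 falling members, and in either direction in 33.9% of all genes tested. The CPM values of the 3 NSC and the 3 D2 libraries did not overlap for 177 members, and for 82.2% of all genes tested. Of the 174 members that passed, 172 had the same direction under control, naloxone and DAMGO, the exceptions being Slc31a1 and Slc7a10. The same differences enter the state test, so this agreement follows largely from passing it and is no separate support. The share over all genes that passed was not counted.

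**Figure D1:**
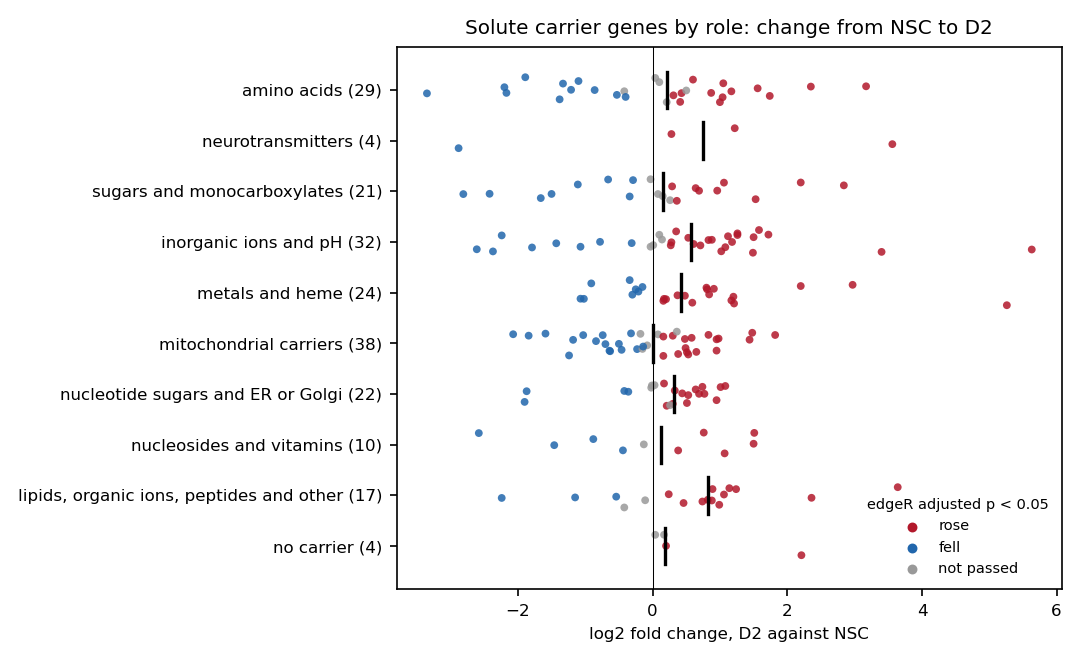
Each point is 1 of the 201 members, placed on the horizontal axis by its edgeR log2 fold change (D2 against NSC) and grouped by the role of its family; black bars are medians and colours give the call at an adjusted p under 0.05. Every transport role except the mitochondrial carriers, whose median was 0.00, had its median above 0, and members of the same role lie on both sides of 0.

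Amino acid carriers were split, near the shares over all genes tested (40.0% rose and 39.8% fell). Of 29 members 13 rose (44.8%), 11 fell (37.9%) and 5 did not pass, with a median log2 fold change of 0.21. The counts of every role and list below are to be read beside the same shares over all genes. Their summed level was nearly level between the states, 1401 to 1430 TPM in NSC and 1432 to 1475 TPM in D2.

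Slc7a1 (chr5:148327410-148399904, mm10), the cationic carrier of arginine and lysine, had the deepest fall of any member. It stood at 70.0, 70.1 and 73.1 TPM in the NSC libraries (control, naloxone and DAMGO, the order used throughout) and at 8.57, 6.46 and 6.26 TPM in D2. The log2 fold change was -3.35 (SE 0.08, adjusted p = 5.22e-12), 10.2-fold lower, and the groups were far apart. Its relative Slc7a2, a cationic carrier from the same family, rose slightly from 3.81 ± 0.243 to 5.23 ± 0.421 TPM (SD, n = 3 libraries per state; log2 fold change 0.43, SE 0.12).

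Slc7a5 (chr8:121881150-121907694), which imports large neutral amino acids such as leucine, stood at 201, 194 and 189 TPM in NSC and at 70.6, 80.1 and 74.8 TPM in D2. All D2 libraries were below all NSC libraries (log2 fold change -1.38, SE 0.06, adjusted p = 4.83e-10). Slc3a2 (chr19:8706882-8723369), the heavy chain that brings Slc7a5 and Slc7a11 to the membrane, fell less, from 172, 175 and 160.1 TPM to 107, 125 and 122 TPM (log2 fold change -0.53, SE 0.06). In NSC the TPM of the heavy chain was close to that of Slc7a5, and in D2 it was higher in every library. Slc7a11 (chr3:49892526-50443614), the cystine importer that exports glutamate in exchange, was 5.59 ± 0.376 TPM in NSC and 6.90 ± 0.552 TPM in D2. It rose by edgeR (log2 fold change 0.41, SE 0.10, adjusted p = 0.00331), and the call was lost with limma on log2(TPM + 1).

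Slc38a2 (chr15:96687392-96699730), the sodium-coupled carrier of small neutral amino acids that is induced in amino acid shortage, had 188, 193 and 204 TPM in NSC and 76.5, 83.4 and 73.7 TPM in D2. It fell 2.52-fold (log2 fold change -1.33, SE 0.05). Its relative Slc38a3 (chr9:107650634-107669530), a glutamine carrier of astrocytes, went the other way, from 99.0, 108 and 98.2 TPM to 222, 227 and 243 TPM (log2 fold change 1.17, SE 0.06). For both genes the state groups did not overlap. Slc38a6 (chr12:73286779-73354049), the amino acid carrier with the highest mean level, rose from 116 ± 3.41 to 239 ± 10.9 TPM (log2 fold change 1.04, SE 0.05), and the related Slc38a1 was level at 89.8 to 91.6 TPM in NSC and 88.8 to 98.8 TPM in D2 (log2 fold change 0.04, adjusted p = 0.465).

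The SLC1 family, which holds the glutamate carriers and the neutral amino acid exchangers, was divided as well. Slc1a5 (chr7:16781340-16798274), the glutamine exchanger, had 20.3, 16.1 and 23.6 TPM in NSC and 3.50, 3.21 and 6.69 TPM in D2 (log2 fold change -2.17, SE 0.14). Slc1a4 (chr11:20302180-20332713), the exchanger of serine and alanine, rose from 65.2 ± 2.08 to 119 ± 4.62 TPM (log2 fold change 0.87, SE 0.06). Slc1a1 (chr19:28835049-28913960), a high-affinity glutamate carrier, had 8.35, 6.39 and 7.55 TPM in NSC and 60.6, 61.5 and 58.1 TPM in D2. That was the largest rise among amino acid carriers (log2 fold change 3.17, SE 0.08, adjusted p = 9.67e-12). Its exons overlap those of 4430402I18Rik, and the libraries do not mark strand, so reads in the shared stretch cannot be told apart. The excluded relatives Slc1a2 and Slc1a3 stood at 21.3 ± 0.470 and 404 ± 5.79 TPM in NSC and at 121 ± 3.98 and 1722 ± 85.4 TPM in D2.

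Glycine and taurine carriers of the SLC6 family also moved apart. Slc6a9 (chr4:117834506-117875198), the glial glycine carrier, rose from 28.5, 34.0 and 25.8 TPM to 91.3, 96.4 and 97.1 TPM. Its log2 fold change from counts was 2.35 (SE 0.08) and its log2 ratio of mean TPM was 1.69, and the mean transcript length in the deposited tables went from 1727 to 2711 bases. Its exons overlap those of B4galt2 and Ccdc24. Slc6a6 (chr6:91684053-91759066), the taurine carrier, fell from 58.3, 54.5 and 54.6 TPM to 13.1, 11.4 and 12.2 TPM (log2 fold change -2.20, SE 0.06). The facilitated carriers Slc43a1 and Slc43a2, both of large neutral amino acids, changed in opposite directions, at -1.89 (SE 0.16) and 1.74 (SE 0.08). Slc6a8, the creatine carrier, did not pass (log2 fold change 0.10, adjusted p = 0.101).

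**Figure D2:**
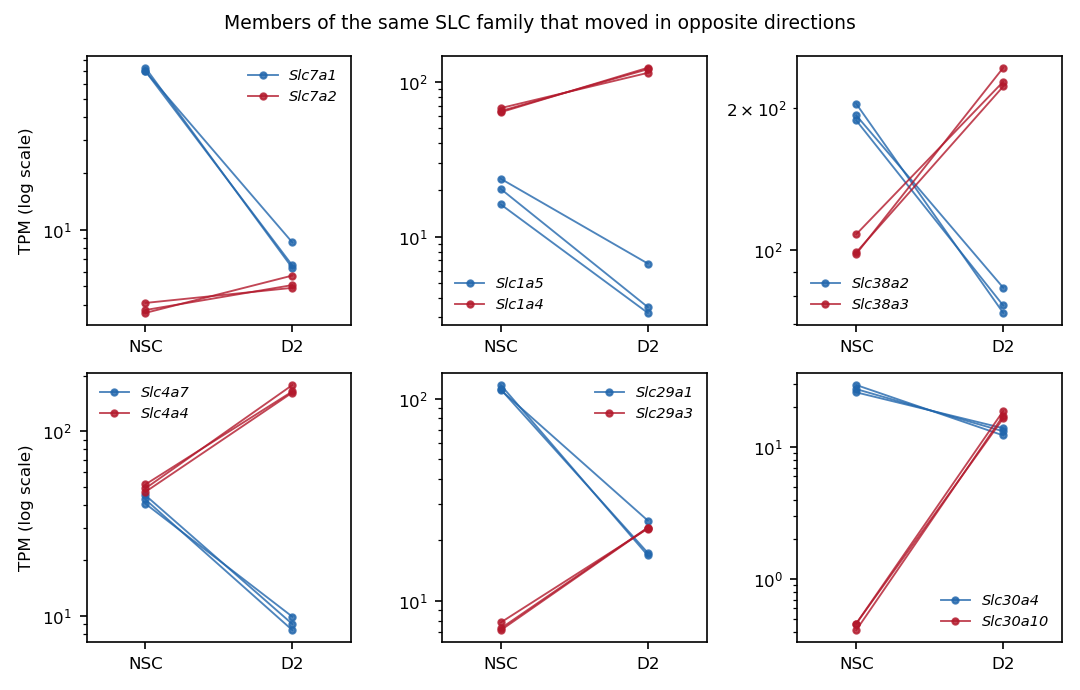
Deposited TPM (log axis, scale differing by panel) of 6 pairs of genes from the same family in NSC and D2, with 1 line for each ligand condition; blue genes fell and red genes rose. In the panel of Slc38a2 and Slc38a3 the order of the genes turned around, with Slc38a2 at 188 to 204 TPM against 98.2 to 108 TPM in NSC and at 73.7 to 83.4 against 222 to 243 TPM in D2.

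A set of 9 amino acid carriers that are known targets of ATF4, the transcription factor of the amino acid response, was read separately. Slc7a3 belongs to this set although it missed the count minimum. In D2, 6 of them fell (Slc7a1, Slc1a5, Slc7a3, Slc7a5, Slc38a2 and Slc3a2) and 3 rose (Slc7a11, Slc1a4 and Slc6a9). Of all genes tested 39.8% fell and 40.0% rose. The median log2 fold change of the set was -1.33 beside 0.00145 over all genes tested. ATF4 binds a composite element that is commonly written TGATGNAA, and this element was searched on both strands in windows from 250 bases before to 50 bases after gene starts (RefSeq, GRCm38.p6). It occurred in 3.97% of 32851 windows and in 1.93% of the 207 windows of the 159 members that had one. Members with a match were Slc7a11, Slc1a4 and Slc9a9, which rose, and Slc50a1, which did not pass. Of the 9 carriers of the set 6 had a window and 2 had a match.

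Stretches of 150 bases next to the gene starts of 2 carriers with a match and of 2 that fell and had no match follow to place these letters, with matches to the element on either strand in capitals. All 4 genes lie on the minus strand and the sequences are written 5′ to 3′ in the direction of transcription. The coordinates are chr3:50443614-50443763 for Slc7a11, chr11:20332710-20332859 for Slc1a4, chr5:148399905-148400054 for Slc7a1 and chr15:96699729-96699878 for Slc38a2.
Slc7a11: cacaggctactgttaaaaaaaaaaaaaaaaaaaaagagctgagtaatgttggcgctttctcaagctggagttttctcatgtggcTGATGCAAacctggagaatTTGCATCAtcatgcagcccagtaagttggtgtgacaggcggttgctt
Slc1a4: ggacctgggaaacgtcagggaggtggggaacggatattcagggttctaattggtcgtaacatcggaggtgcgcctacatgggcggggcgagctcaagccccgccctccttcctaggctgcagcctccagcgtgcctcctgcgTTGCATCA
Slc7a1: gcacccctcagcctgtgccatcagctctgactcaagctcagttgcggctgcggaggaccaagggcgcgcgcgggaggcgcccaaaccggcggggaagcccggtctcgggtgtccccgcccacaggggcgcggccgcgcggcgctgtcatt
Slc38a2: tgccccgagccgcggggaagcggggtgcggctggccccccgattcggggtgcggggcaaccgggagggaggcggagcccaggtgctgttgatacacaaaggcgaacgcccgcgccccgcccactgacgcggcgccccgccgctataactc
The matches of Slc7a11 begin 66 and 47 bases before the RefSeq start and lie on opposite strands. The match of Slc1a4 begins 4 bases before the start and runs across it. A match is a description of the sequence and does not show that the factor binds there, and a window without one says only that these letters are not in it. A second motif, CACGTG (the E-box of the MYC and TFE families, a palindrome that reads the same on both strands), was in 7.15% of all windows and in 14.5% of member windows. It occurred in 28 members, of which 16 rose, 10 fell and 2 did not pass, next to 90, 50 and 19 of all members with a window.

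Transmitter carriers were few, and 3 of 4 rose while 1 fell. Slc6a11 (chr6:114131241-114249952), the GABA carrier of astrocytes, had the lowest adjusted p of any member. It stood at 95.9, 104 and 97.3 TPM in NSC and at 1232, 1145 and 1159 TPM in D2, so that every D2 library was more than 10 times every NSC library. The log2 fold change was 3.56 (SE 0.06, adjusted p = 2.53e-13), 11.8-fold higher. Vesicular carriers were low: Slc18b1, which loads polyamines into vesicles, rose from 13.5 ± 0.479 to 32.3 ± 2.73 TPM (log2 fold change 1.22, SE 0.08). Slc18a2, the vesicular monoamine carrier, was at 2.24, 2.01 and 1.98 TPM in NSC and 0.17, 0.42 and 0.26 TPM in D2 (log2 fold change -2.88, SE 0.38). With a mean of 22.0 counts it passed the minimum only through NSC. The astrocyte markers given above rose in the same libraries, from at most 960 to at least 4850 CPM, and most of that sum is the carriers Slc1a3 and Slc1a2.

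**Figure D3:**
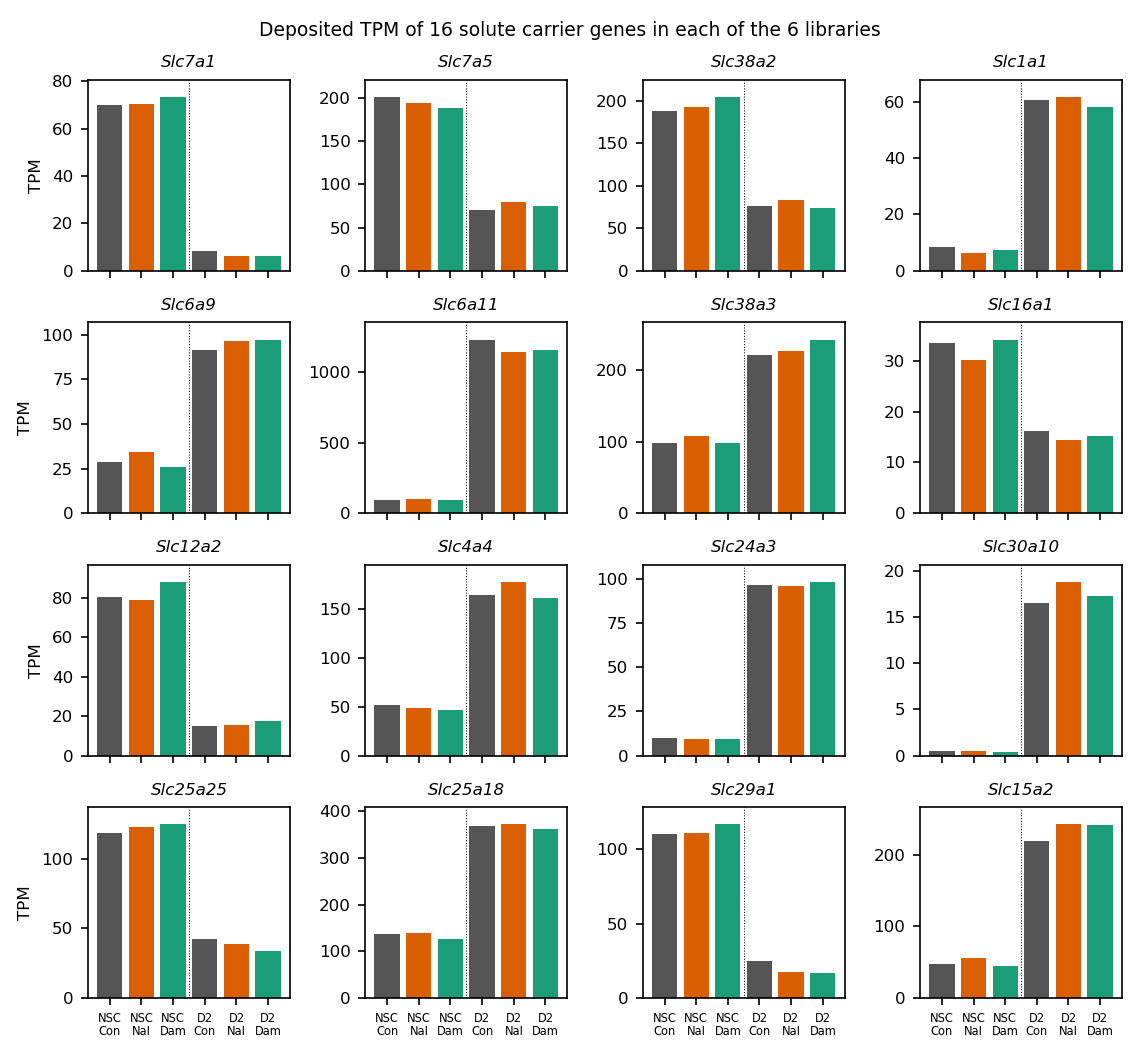
Bars give the deposited TPM of 16 members in each of the 6 libraries (grey control, orange naloxone, green DAMGO; linear axes from 0, scale differing by panel). The dotted line separates NSC from D2, and for each gene all bars on one side of it are higher than all bars on the other, as for Slc6a11 with 95.9 to 104 against 1145 to 1232 TPM.

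Carriers of sugars and monocarboxylates were mixed: of 21 members 9 rose, 8 fell and 4 did not pass (median log2 fold change 0.15). These shares, 42.9% and 38.1%, were near the 40.0% and 39.8% of all genes tested. The summed level was 325 to 338 TPM in NSC and 311 to 342 TPM in D2. Slc2a1 (chr4:119108711-119137983), the basal glucose carrier, had 18.4, 20.4 and 20.4 TPM in NSC and 29.0, 25.1 and 22.5 TPM in D2. Its log2 fold change was 0.36 (SE 0.10, adjusted p = 0.00665). With either untreated library left out it was 0.21 and did not pass (edgeR, adjusted p = 0.107 and 0.117), and DESeq2 did not call it. Slc2a3, the high-affinity glucose carrier of neurons, did not pass (log2 fold change 0.08, adjusted p = 0.44), at 10.2 ± 1.30 TPM in NSC and 11.3 ± 0.317 TPM in D2.

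The larger changes lay in less common members of the SLC2 family. Slc2a9 (chr5:38349273-38503143), a urate carrier, fell from 10.6, 11.2 and 11.4 TPM to 2.50, 1.99 and 1.31 TPM (log2 fold change -2.81, SE 0.18). Slc2a6 fell from 7.44 ± 0.728 to 2.30 ± 0.607 TPM (log2 fold change -1.66, SE 0.21). Slc2a12 (chr10:22645011-22704285), another glucose carrier, rose from 0.547 ± 0.172 to 4.15 ± 0.843 TPM (log2 fold change 2.84, SE 0.31), with exons that overlap those of Tbpl1. It had 15, 10 and 8 counts in NSC, so it passed the count minimum only through D2. The inositol carriers parted: Slc2a13, which is driven by protons, rose from 3.79 ± 0.475 to 10.2 ± 0.335 TPM (log2 fold change 1.53, SE 0.11). Slc5a3, which is driven by sodium and shares exons with Mrps6, fell from 15.8 ± 3.16 to 5.40 ± 0.442 TPM (log2 fold change -1.50, SE 0.08).

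Among monocarboxylate carriers 4 of 7 fell and 2 rose. Slc16a1 (chr3:104638668-104658462), the carrier of lactate and pyruvate, had 33.5, 30.2 and 34.1 TPM in NSC and 16.1, 14.4 and 15.1 TPM in D2, without overlap (log2 fold change -1.11, SE 0.07, adjusted p = 1.90e-08). The membrane chaperones of these carriers differed: Bsg rose (log2 fold change 0.76, SE 0.05) and Emb fell (-1.08, SE 0.26). Emb was low, at a mean of 3.63 CPM in NSC and 1.71 CPM in D2 against 202 and 341 CPM for Bsg. Inside the cell, the pyruvate carrier subunits Mpc1 and Mpc2 rose by 0.44 (SE 0.07) and 0.71 (SE 0.08) on the log2 scale. Mcu, the pore of the mitochondrial calcium uniporter, rose by 0.21 (SE 0.07). Slc50a1, the member with the highest mean TPM in the sugar group, did not pass (48.8, 50.4 and 47.7 against 47.8, 60.1 and 53.8 TPM).

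Carriers of inorganic ions rose more often than they fell: 20 of 32 rose, 8 fell and 4 did not pass, with a median log2 fold change of 0.57 beside 0.00145 for all genes. The role was set by family number, so it also holds Slc13a3 and Slc17a5, carriers of organic acids that both rose. The summed level of the role went from 734 to 742 TPM in NSC to 907 to 939 TPM in D2. The cation-chloride cotransporters set the chloride level of a cell, Slc12a2 by uptake and Slc12a5 by extrusion. Slc12a2 had 80.5, 78.8 and 88.1 TPM in NSC and 15.1, 15.4 and 17.6 TPM in D2, 5.18-fold lower (log2 fold change -2.37, SE 0.06, adjusted p = 5.11e-12). Slc12a5 (chr2:164960802-164999731) was low throughout, at 1.78, 1.39 and 2.38 TPM in NSC and 2.79, 3.27 and 3.32 TPM in D2. Its log2 fold change of 0.61 (SE 0.22, adjusted p = 0.0214) became 0.42 without the NSC or without the D2 library with naloxone. It did not pass in those fits, without either library with DAMGO (0.50) or with DESeq2. Slc12a4, a potassium-chloride cotransporter of broader expression, did not pass (log2 fold change 0.01, adjusted p = 0.84). Of 6 kinases that act on these cotransporters 4 fell, among them Wnk1 (-0.81, SE 0.04) and Stk39 (-0.90, SE 0.06), and 2 rose, Wnk2 and Wnk4. Wnk4 was low, at a mean of 0.654 CPM in NSC and 1.95 CPM in D2.

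Bicarbonate carriers moved in both directions. Slc4a4 (chr5:88886818-89239653), the sodium bicarbonate cotransporter of astrocytes, rose from 51.5, 49.0 and 47.0 TPM to 164, 178 and 162 TPM (log2 fold change 1.72, SE 0.05, adjusted p = 2.25e-11). Slc4a7 (chr14:14702279-14799940), which also brings in sodium and bicarbonate, fell from 42.7, 40.5 and 45.0 TPM to 8.38, 9.91 and 9.04 TPM (log2 fold change -2.24, SE 0.07). The anion exchangers Slc4a2 and Slc4a3 rose by 1.58 (SE 0.07) and 1.26 (SE 0.08) on the log2 scale, and the exons of Slc4a2 overlap those of Fastk. Among the sodium-proton exchangers, Slc9a5 (chr8:105348843-105369881) fell from 16.4, 17.8 and 18.02 TPM to 2.35, 3.14 and 3.12 TPM (log2 fold change -2.61, SE 0.10). The endosomal exchanger Slc9a9 rose by 1.08 (SE 0.10). Slc20a1, the phosphate importer, fell by 1.43 on the log2 scale (SE 0.06), from 114 ± 7.90 to 44.4 ± 2.51 TPM. Its exons overlap those of 9830144P21Rik and Gm4430.

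Of the 7 carriers that export calcium in exchange for sodium (SLC8 and SLC24), 6 rose and 1 fell, beside 40.0% and 39.8% of all genes tested. Slc24a4 passed the count minimum only through D2 and Slc24a5 only through NSC, so their directions add nothing to this count. All 4 members of the SLC8 family rose: Slc8a1 by 0.35 (SE 0.11), Slc8a2 by 1.5 (SE 0.09), Slc8a3 by 1.18 (SE 0.10) and the mitochondrial Slc8b1 by 1.49 (SE 0.23) on the log2 scale. The family's summed level went from 27.1 to 58.8 TPM. Slc24a3 (chr2:145167754-145642166), which exchanges sodium for calcium and potassium, had 9.84, 9.28 and 9.55 TPM in NSC and 97.0, 95.9 and 98.4 TPM in D2 (log2 fold change 3.40, SE 0.07, adjusted p = 1.10e-12). Slc24a4, a relative, was nearly absent from NSC, with 3 counts summed over its libraries against 135 in D2, a ratio of 54.3 with an exact 95% counting interval from 18.2 to 267. Slc24a5 fell, from 6.67 ± 0.719 to 1.98 ± 0.290 TPM (log2 fold change -1.79, SE 0.27), with fractional expected counts and exons that overlap those of Myef2. The sodium gradient behind these exchangers is made by the Na,K-ATPase. Of its beta subunits, the glial Atp1b2 rose by 2.74 (SE 0.05), and Atp1b1 and Atp1b3 fell by 1.12 and 0.72 on the log2 scale.

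Metal and heme carriers all passed the test, 16 with a rise and 8 with a fall of 24 members (median log2 fold change 0.42). Of all genes tested 79.8% passed. The shares of members that rose and fell were 66.7% and 33.3%, beside 40.0% and 39.8% of all genes. With limma on log2(TPM + 1), 13 rose and 5 fell. Their summed level went from 867 to 875 TPM in NSC to 1067 to 1098 TPM in D2. Slc30a10 (chr1:185454848-185468762), the manganese exporter, rose from 0.460, 0.460 and 0.410 TPM to 16.5, 18.8 and 17.3 TPM. That was 38.4-fold (log2 fold change 5.26, SE 0.13, adjusted p = 7.87e-12), and the exons overlap those of Gm2061. Slc30a10 had 13, 17 and 10 counts in NSC, so it passed the count minimum only through D2. Slc39a12 (chr2:14388316-14494977), a zinc importer of the brain, rose from 0.780, 1.29 and 0.650 TPM to 7.42, 7.72 and 7.15 TPM (log2 fold change 2.97, SE 0.24). It had 10, 21 and 7 counts in NSC and also passed the minimum only through D2. Of 10 SLC39 importers 7 rose and 3 fell, and of 7 SLC30 carriers 4 rose and 3 fell.

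Slc39a7 (chr17:34028269-34031682), which releases zinc from the endoplasmic reticulum, had the highest mean TPM of the group. It stood at 146, 153 and 144 TPM in NSC and 176, 167 and 181 TPM in D2 (log2 fold change 0.20, SE 0.06, adjusted p = 0.00684). The call was lost when the D2 control or either DAMGO-treated library was left out (0.16 to 0.17), and the exons overlap those of Gm20427. Slc30a1 (chr1:191906767-191913247), the zinc exporter of the plasma membrane, rose by edgeR (log2 fold change 0.37, SE 0.08) and was not called by limma on log2(TPM + 1) (0.21), with exons that overlap those of 1700034H15Rik. Slc30a4 (chr2:122681233-122702663), a vesicular zinc carrier, fell from 29.5, 26.0 and 27.5 TPM to 12.3, 13.9 and 13.2 TPM (log2 fold change -1.07, SE 0.08). The magnesium carriers of the SLC41 family differed: Slc41a1 and Slc41a3 rose by 1.21 (SE 0.08) and 2.20 (SE 0.15), and Slc41a2 fell by 1.02 (SE 0.12) on the log2 scale. Slc48a1, a heme carrier of endosomes and lysosomes, rose from 44.1 ± 2.39 to 77.4 ± 4.08 TPM (log2 fold change 0.80, SE 0.07), with exons that overlap those of Hdac7.

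Mitochondrial carriers were balanced, as were all genes tested (40.0% rose and 39.8% fell). Of 38 SLC25 members 17 rose (44.7%), 16 fell (42.1%) and 5 did not pass, and the median log2 fold change was 0.00. The summed level was 4718 to 4759 TPM in NSC and 4848 to 4880 TPM in D2. Much of that sum came from 3 genes. Slc25a5 (chrX:36795651-36798807), an ADP/ATP exchanger and the most abundant member by TPM, had 1985, 1982 and 2054 TPM in NSC and 1810.4, 1877 and 1829.9 TPM in D2. It fell slightly (log2 fold change -0.14, SE 0.04, adjusted p = 0.00742), a call lost when either control or the DAMGO-treated NSC library was left out. Slc25a4 (chr8:46206797-46211284), the ADP/ATP exchanger of muscle and brain, rose slightly from 474, 486 and 492 TPM to 557, 541 and 529.7 TPM (log2 fold change 0.16, SE 0.05). That call was lost without either control library. The phosphate carrier Slc25a3 did not pass (log2 fold change -0.08, adjusted p = 0.121).

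Carriers of glutamate and aspartate moved in different directions. Slc25a18 (chr6:120773578-120794336), a glutamate carrier, rose from 138, 139 and 126 TPM to 369, 372 and 361 TPM (log2 fold change 1.44, SE 0.05), with exons that overlap those of Atp6v1e1. The other glutamate carrier, Slc25a22, did not pass (-0.15, adjusted p = 0.188). Slc25a13 (chr6:6041218-6217173), an aspartate-glutamate exchanger of the malate-aspartate shuttle, fell from 9.78, 8.49 and 10.8 TPM to 1.72, 3.23 and 2.47 TPM (log2 fold change -2.07, SE 0.20). Its brain counterpart Slc25a12 did not pass, at 97.0 ± 16.9 TPM in NSC and 103 ± 16.0 TPM in D2 (log2 fold change 0.08).

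Slc25a25 (chr2:32414487-32451445), a calcium-regulated carrier of ATP-Mg and phosphate, fell from 118, 123 and 124 TPM to 42.5, 38.9 and 33.3 TPM (log2 fold change -1.84, SE 0.06), with exons that overlap those of Naif1. Slc25a23, a carrier of the same kind, rose from 124 ± 5.11 to 241 ± 7.49 TPM (log2 fold change 0.95, SE 0.06). Slc25a42 (chr8:70184340-70212305), the coenzyme A carrier, rose from 7.50, 7.95 and 6.37 TPM to 25.4, 23.1 and 28.7 TPM (log2 fold change 1.82, SE 0.14). Both iron importers fell, Slc25a37 by 1.59 (SE 0.07) and Slc25a28 by 0.50 (SE 0.12) on the log2 scale. Slc25a20, the carrier of acylcarnitines for fatty acid oxidation, rose by 0.83 (SE 0.09), and the glutathione carrier Slc25a39 fell by 0.46 (SE 0.06). Slc25a35 rose from 1.86 ± 0.246 to 6.12 ± 0.837 TPM (log2 fold change 1.48, SE 0.21), with exons that overlap those of Rangrf.

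**Figure D4:**
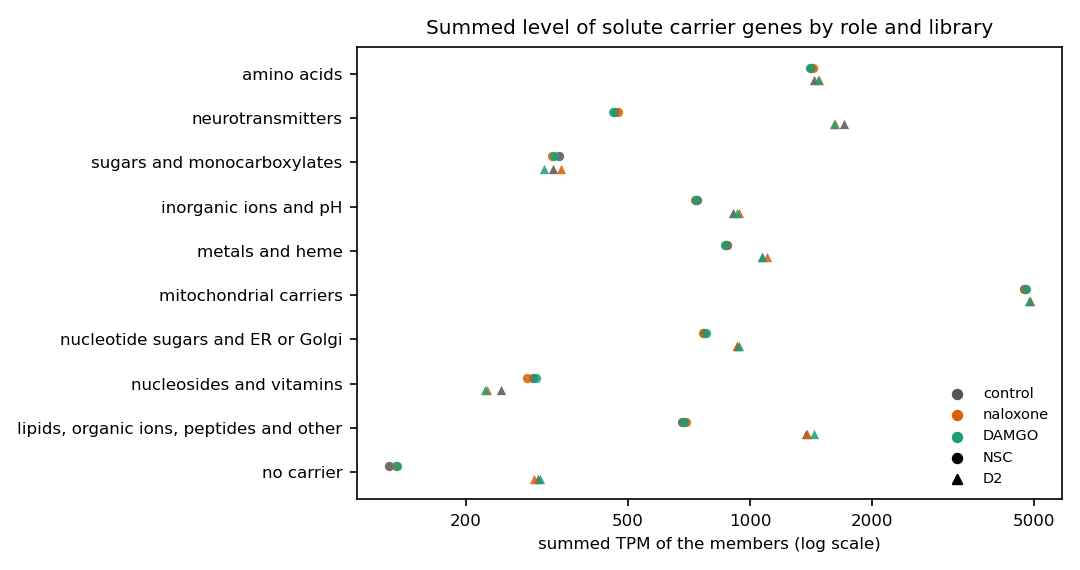
Summed deposited TPM of the members of each role (log axis) in each library, with circles for NSC, triangles for D2 and colours for the ligand. The mitochondrial carriers sum to 4718 to 4880 TPM in all 6 libraries, and the carriers of inorganic ions move from 734 to 742 TPM in NSC to 907 to 939 TPM in D2.

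Of 10 carriers of nucleosides and vitamins 5 rose, 4 fell and 1 did not pass (median log2 fold change 0.12), beside 40.0% and 39.8% of all genes tested. The summed level went from 283 to 297 TPM in NSC to 222 to 244 TPM in D2. Slc29a1 (chr17:45585200-45599606), the nucleoside carrier of the plasma membrane, fell by more than this sum did. It had 110.1, 111 and 117 TPM in NSC and 24.9, 17.3 and 16.8 TPM in D2, 5.98-fold lower without overlap (log2 fold change -2.58, SE 0.08, adjusted p = 3.99e-11). Slc29a2, a related nucleoside carrier, fell by 0.88 (SE 0.12), and the lysosomal Slc29a3 (chr10:60712072-60752794) rose from 7.17, 7.83 and 7.32 TPM to 22.9, 22.8 and 23.0 TPM (log2 fold change 1.5, SE 0.08). The thiamine carrier Slc19a2 fell from 33.1 ± 2.05 to 11.5 ± 0.897 TPM (log2 fold change -1.46, SE 0.09). Of the folate carriers, Slc19a1 fell by 0.44 (SE 0.12) and the proton-coupled Slc46a1 rose by 1.07 (SE 0.12) on the log2 scale. Slc46a3 rose by 1.51 (SE 0.22), and Slc23a2, the vitamin C carrier, by 0.76 (SE 0.06).

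Carriers of nucleotide sugars and other substrates of the Golgi apparatus and endoplasmic reticulum mostly rose: 14 of 22 rose, 4 fell and 4 did not pass (median log2 fold change 0.31). The shares were 63.6% and 18.2%, beside 40.0% and 39.8% of all genes tested. Their summed level was 766 to 781 TPM in NSC and 926 to 939 TPM in D2. The UDP-galactose carrier Slc35a2 (chrX:7884028-7894492) rose from 16.5, 20.2 and 21.0 TPM to 40.0, 38.3 and 48.7 TPM (log2 fold change 1.01, SE 0.10). The UDP-N-acetylglucosamine carrier Slc35a3 (chr3:116669470-116712831) fell from 18.2, 18.2 and 21.0 TPM to 6.86, 6.44 and 7.36 TPM (log2 fold change -1.87, SE 0.10). Neither pair of groups overlapped. The CMP-sialic acid carrier Slc35a1 fell by 0.42 (SE 0.11), and Slc35d1, which carries UDP-glucuronic acid, rose by 0.95 (SE 0.09). Slc35b2, which carries the sulfate donor PAPS, rose by 0.53 (SE 0.05). All 4 members of the SLC35F group rose (median 0.69). Slc35g1 fell from 12.8 ± 1.31 to 3.43 ± 0.561 TPM (log2 fold change -1.90, SE 0.13). Slc35a4, the most abundant of the group at 136 ± 3.51 and 144 ± 11.3 TPM, had a log2 fold change of 0.17 (SE 0.05, adjusted p = 0.012). That call was lost with DESeq2 and limma and in 4 of 6 fits without 1 library (without either control or either library with DAMGO, 0.14 to 0.16).

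Carriers of lipids, organic ions and peptides had the highest median of the larger roles, 0.82, with 12 rises, 3 falls and 2 not passed of 17. The shares were 70.6% and 17.6%, beside 40.0% and 39.8% of all genes tested. Their summed level went from 682 to 696 TPM in NSC to 1375 to 1437 TPM in D2. Slc15a2 (chr16:36750177-36784962), the proton-coupled peptide carrier of astrocytes and choroid plexus, rose from 46.9, 56.5 and 45.1 TPM to 219.96, 243 and 242 TPM (log2 fold change 2.36, SE 0.06, adjusted p = 1.25e-11). The urea carrier gene Slc14a2 rose from 9.19, 5.80 and 6.52 TPM to 83.0, 87.1 and 101 TPM (log2 fold change 3.64, SE 0.13). Slc22a17 (chr14:54906304-54913132), which encodes a receptor for lipocalin-2, was the most abundant of the group and rose from 263 ± 1.85 to 492 ± 21.6 TPM (log2 fold change 0.89, SE 0.05).

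All 3 choline carrier-like genes of the SLC44 family rose, Slc44a1 by 0.46 (SE 0.06), Slc44a2 by 0.74 (SE 0.06) and Slc44a5 by 1.24 (SE 0.12) on the log2 scale. Of the fatty acid transport proteins, Slc27a1 and Slc27a4 rose by 0.88 (SE 0.06) and 0.99 (SE 0.06), and Slc27a3 and Slc27a6 fell by 0.54 (SE 0.12) and 2.24 (SE 0.33). Slc27a6 was low in D2, at 1.06, 1.19 and 0.4 TPM, and passed the count minimum only through NSC. The carnitine importer Slc22a5 rose by 1.14 (SE 0.11). Slc10a7 fell from 20.5 ± 1.73 to 9.32 ± 0.954 TPM (log2 fold change -1.15, SE 0.09). Of 14 organic anion transporter genes of the related Slco series, 3 reached the test filter and 2 of these fell, Slco3a1 and Slco5a1. Among the 4 symbols that name no carrier, Slc9a3r1, a scaffold protein of membrane transporters, rose from 41.7, 42.2 and 41.5 TPM to 201, 189 and 195 TPM (log2 fold change 2.21, SE 0.06). Slc4a1ap passed with 0.20 (adjusted p = 0.0275), a call lost with DESeq2, without a filter on low counts and in 5 of the 6 fits without 1 library (kept without the NSC library with naloxone). The other 2 did not pass.

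The ligands were compared over the 2 states, which asks whether a ligand moved a gene in the same direction in stem cells and in differentiated cells. No member passed the edgeR test for naloxone against control, DAMGO against control or naloxone against DAMGO. Over all genes tested, 0.0151%, 0.0151% and 0.0303% were called in these contrasts. The members at an unadjusted p under 0.05 were 4, 4 and 3, and DESeq2 and limma also called 0 members. The 95% interval of a log2 fold change was taken over members at 20 CPM or more. Its median half-width was 0.16 for naloxone and 0.17 for DAMGO and for the difference, so smaller shared changes were not detectable here. These intervals are for 1 gene at a time and are not adjusted. A call after adjustment over all genes tested takes a larger change, so shared changes beyond these widths can also go uncalled. Slc12a2, at -0.19 (SE 0.07) between naloxone and DAMGO, was not called. The naloxone and DAMGO contrasts share both control libraries, and their values are therefore given side by side without a correlation.

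The members below are those with the largest ratios of the same sign in both states, and none of them passed (edgeR adjusted p = 1.0 for each). Slc29a2, the nucleoside carrier, had 21.2 CPM in the NSC control, 14.6 with naloxone and 17.6 with DAMGO, and 10.7, 8.03 and 10.3 CPM in D2. Its log2 fold change for naloxone was -0.48 (SE 0.14). Slc25a35 had 1.89, 3.55 and 2.65 CPM in NSC and 6.57, 7.56 and 8.60 CPM in D2, with log2 fold changes of 0.48 for naloxone and 0.42 for DAMGO. Slc35b3, a carrier of PAPS, had 10.6, 8.51 and 7.06 CPM in NSC and 11.3, 11.1 and 8.94 CPM in D2, with a log2 fold change of -0.46 for DAMGO. In these genes the control library was the extreme of its state, at levels of at most 21.2 CPM. Smaller values for naloxone were those of Slc35d1 (0.22), Slc50a1 (0.19), Slc25a33 (-0.28), a mitochondrial pyrimidine carrier, and Slc43a1 (-0.30). For DAMGO they were those of Slc19a1 (0.26), Slc10a7 (0.25), Slc37a2 (-0.24) and Slc16a6 (-0.26). Between naloxone and DAMGO the members highest with naloxone were Slc35b3 (0.28), Slc2a8 (0.27) and Slc12a7 (0.20), and the lowest were Slc25a22 (-0.32), Slc29a2 (-0.31) and Slc22a5 (-0.26).

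Within 1 state each comparison is of 2 libraries and has no replicate check. A ratio past 1.5-fold was seen in NSC for 6 of 201 members with naloxone (3.78% of all genes tested) and 2 with DAMGO (4.43%). In D2 it was seen for 9 members with naloxone (6.69%) and 6 with DAMGO (6.76%). Between naloxone and DAMGO it was seen for 4 members in NSC (4.25%) and 8 in D2 (5.77%). Over the 4 comparisons with a control, 23 of 804 values passed 1.5-fold, and of the 497 values with a mean of at least 20 CPM there were 0. Each of the 23 thus came from a pair of libraries with a mean below 20 CPM for that gene. The widest was Slc7a10, an exchanger of small neutral amino acids. It had 12 and 29 counts in the NSC control and with naloxone (log2 ratio 0.82, exact 95% counting interval of the ratio 0.937 to 4.07) and 45 and 17 counts in D2 (log2 ratio -1.06, interval 0.244 to 0.811). Its expected counts were fractional and its exons overlap those of Lrp3.

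Among members of at least 20 CPM the largest ratios stayed small. In D2 with naloxone, Slc25a36, a mitochondrial pyrimidine nucleotide carrier, was at 72.2 against 55.2 CPM (log2 ratio 0.38, interval 1.16 to 1.47). Slc38a9, the lysosomal amino acid sensor, was at 25.8 against 18.9 CPM (0.44, interval 1.12 to 1.66). Slc35c2 was at 28.4 against 40.0 CPM (-0.49, interval 0.601 to 0.833). In D2 with DAMGO, Slc38a9 was at 24.4 CPM (0.37), Slc5a3 at 26.9 against 20.6 CPM (0.38), Slc2a1 at 26.5 against 33.9 CPM and Slc25a16 at 20.6 against 26.5 CPM (both -0.36). Slc7a1 was lower with either ligand, at 20.8 with naloxone and 20.7 with DAMGO against 26.6 CPM in the D2 control that both share. In NSC with naloxone the extremes were Slc39a3 (0.23), Slc43a2 (0.21), Slc50a1 (0.19), Slc35a5 (-0.23), Slc35c1 (-0.26) and Slc26a2 (-0.27). In NSC with DAMGO they were Slc19a1 (0.28), Slc10a7 (0.22), Slc7a6os (0.22), Slc15a4 (-0.18), Slc45a4 (-0.21) and Slc41a1 (-0.35, 33.1 against 42.2 CPM). The intervals cover counting error only.

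**Figure D5:**
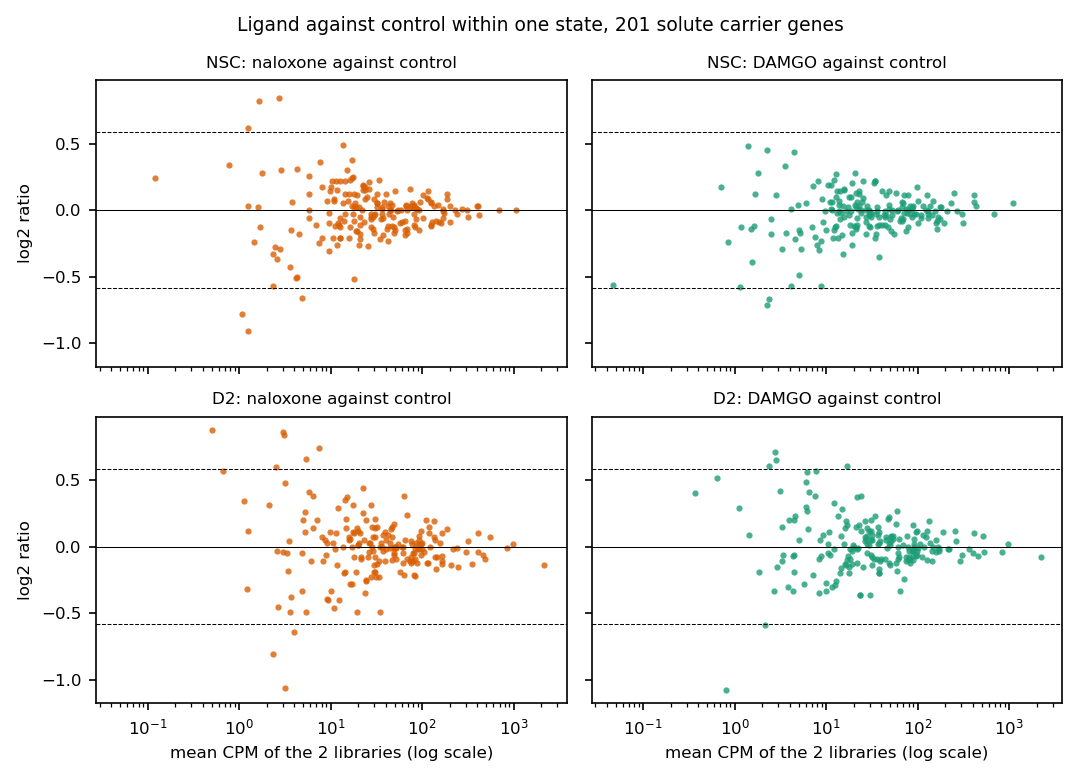
Log2 ratio of each member for naloxone or DAMGO against the control of the same state, plotted against its mean CPM over the 2 libraries (log axis); dashed lines mark 1.5-fold. The 23 points outside the lines lie at the low end of the CPM axis, and 0 of the 497 points of at least 20 CPM are outside them.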

How the data were processed

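RNA sequencing libraries of 6 cultures were prepared from Trizol-extracted total RNA with an Illumina TruSeq kit, per the labels' protocols. The kit does not mark strand. For each library and gene, the authors' deposited values are an expected count (an estimated count that divides ambiguous reads), a TPM and an FPKM. Bowtie, RSEM and the mm10 build are named, per the submitters' processing notes. For versions and annotation, nothing is given in the sources used here. The deposited TPM values are per length and scaled to 1 total per library, the FPKM values deposited by the authors were not used, and the deposited transcript lengths served to compare TPM with counts. Symbols and coordinates came from GENCODE M21 (28756 of 29267 identifiers matched), and promoter sequences from RefSeq on GRCm38.p6.

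Expected counts were rounded, which moved a library total by at most 46.1. The 13216 genes averaging 10 counts or more were normalised by TMM and fitted in edgeR 4.0.16 (R 4.3.3, quasi-likelihood) with additive terms for state and ligand, which leaves 2 residual degrees of freedom. The common biological coefficient of variation was 0.0529. P-values were adjusted by Benjamini-Hochberg over all genes, with a threshold of 0.05. DESeq2 1.42.0, limma 3.58.1 on log2(TPM + 1) and log2(TPM + 0.1), other filters and each library left out were alternatives. Within a state, log2 ratios of normalised CPM with a prior count of 2 carry no test, and intervals are exact binomial 95% intervals for counting error only. Among members 75 had fractional expected counts and 26 had exons that overlap another tested gene. The code was tested on simulated data. Libraries of the same state differed by more than sampling noise (chi-square per degree of freedom 1.56 to 3.84), so none was a copy.

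Members and lists (roles by family number, partners, ATF4-responsive carriers, markers) were chosen with earlier results of these data known. For state, the named members were the 2 largest rises and falls of each role of at least 5 CPM that moved one way under all 3 ligand conditions, the most abundant of each role, and 15 members listed by hand. For a ligand, they were the 3 highest and 3 lowest with the same direction in both states. Within a state, they were the 3 with the highest and the 3 with the lowest ratio among members at 20 CPM or more. Further members, among them Slc24a4 and Slc7a10, are examples chosen after their values were seen. Some genes that these rules and lists hold are not reported here.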

Additional observations from a re-analysis of the deposited data

Results flagged for a closer look

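All 201 members were screened for naloxone and for DAMGO. In 3 abundant members the ratio to control had opposite signs in the 2 states, with an exact 95% counting interval that left out 1 in each state. The share of all genes that meet this rule was not counted. Libraries of 1 state differed by more than counting error (chi-square per degree of freedom 1.56 to 3.84), so these intervals are too narrow for ratios this small. The difference between the states was not tested, since each ratio rests on 2 libraries. Slc6a11, the GABA carrier of astrocytes, had a log2 ratio for naloxone of -0.14 in D2 (17522 against 23186 counts, interval of the ratio 0.892 to 0.928) and of 0.12 in NSC (2609 against 1879 counts, interval 1.02 to 1.15). Slc38a6 had 0.10 in D2 (interval 1.02 to 1.12) and -0.09 in NSC (interval 0.890 to 0.997) with naloxone. Slc3a2, the heavy chain of amino acid exchangers, had a log2 ratio for DAMGO of 0.19 in D2 (interval 1.06 to 1.24) and of -0.10 in NSC (interval 0.873 to 0.993).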

How the results depend on the processing

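Over the alternatives the number of members that rose from NSC to D2 was 93 (DESeq2) to 112 (no ligand terms), and the number that fell was 55 (DESeq2) to 64, beside 111 and 63. The median log2 fold change of the members was 0.289 and lay between 0.264 and 0.297. With 1 library left out it was 0.264 to 0.294, lowest without the D2 library with DAMGO (0.264) and without the NSC library with DAMGO (0.267). Of 673 state values of the named members under 13 alternative fits, 646 stayed on the same side of the threshold, 27 were lost, in 8 of the 52 members named by the rule for state, and 0 changed sign. No member was called for a ligand under any of the fits run. The number of ratios past 1.5-fold within a state, 23, became 29 with a prior count of 0.5, 13 on log2(TPM + 1), 2 at 2-fold and 0 for values of at least 20 CPM, an alternative chosen after seeing the data. The labels give no replicate numbers. The ligand terms pair the libraries of the 2 states, and without these terms 112 members rose and 64 fell. Left out 1 at a time, the libraries leave the other library of the same ligand without weight in the state contrast. With 1 library per group, low counts and overlapping genes limit the values of weakly expressed members.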

Other observations

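For Slc4a8, a sodium-driven bicarbonate exchanger, counts and TPM gave different pictures. The edgeR log2 fold change from counts was 0.14 (adjusted p = 0.145), at 18.8, 20.04 and 20.5 TPM in NSC and 11.99, 8.52 and 9.84 TPM in D2, a log2 ratio of mean TPM of -0.97. The deposited mean transcript length of this gene was 3329, 3016 and 2879 bases in NSC and 5824, 7328 and 6748 bases in D2, without overlap, and 6 transcripts are annotated. Slc12a8 showed a smaller gap, with 0.88 from counts and 0.37 from TPM. These genes and Slc6a9 were the 3 of 201 members in which the log2 values differed by more than 0.5, and in all 3 the TPM ratio was the lower one.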
